A study of Mus musculus with 2 samples.

Results

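Footprints of actively translating ribosomes were examined for 40 genes that carry glucose carbon through the cell: 3 transporters of glucose and of lactate and ketone bodies, 17 enzymes of glycolysis and lactate formation, 6 genes of pyruvate dehydrogenase, its kinase and pyruvate carboxylase, and 14 enzymes of the citrate cycle with their cytosolic partners. The members were chosen by name and pathway, without a threshold on a measured value. All 40 were found among the 45578 genes of the table, and each was read from the transcript that collected most footprints in the pair of libraries. The material was whole brain of mice at postnatal day 5 on a congenic FVB background, with 1 working mouse Smn allele and a human SMN2 transgene (Smn+/-; SMN2tg/0), the controls of a spinal muscular atrophy strain. Every animal carried the same alleles, so there was 1 group of 2 biological replicates and no second condition, and differences between the libraries are differences between 2 preparations. Footprints of 25 to 35 nucleotides were recovered with RiboLace, beads whose puromycin analogue binds ribosomes engaged in translation.

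Glycolysis splits glucose into pyruvate in the cytosol, and lactate dehydrogenase interconverts pyruvate and lactate. Pyruvate that enters mitochondria is oxidised to acetyl-CoA by the pyruvate dehydrogenase complex, or carboxylated by pyruvate carboxylase, and acetyl-CoA is burned in the citrate cycle. The mature brain depends on glucose, while the suckling brain also takes up ketone bodies and lactate through monocarboxylate transporters. Many steps have several isozymes with known preferences, such as the aldolase C and enolase 2 genes used as markers of astrocytes and neurons.

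Replicate 1 held 343552 counts at the gene level and replicate 2 held 120282, of which 279531 and 87925 lay in protein-coding genes. Counts per gene were turned into a density, CPM (counts scaled by the effective library size) per kilobase of coding sequence, so that genes of different length could be compared. The counts were given per transcript, also for transcripts without a coding sequence, so reads on untranslated regions were not set apart. The divisor was the coding length alone. Markers of neurons, taken from a list of 8 genes, held 0.831% and 0.934% of coding counts in replicates 1 and 2, and those of astrocytes and radial glia 0.446% and 0.464%, with no gene of either list at 0. The neuronal marker Tubb3, with 1061 and 405 counts, was higher in replicate 2 (log2 ratio 0.33, adjusted exact binomial p = 0.00365). The 6 endothelial markers had 60 and 29 counts, the 5 microglial markers 63 and 20, and the 6 erythroid genes 1408 and 463. Nearly all erythroid counts lay on the 4 globin genes, with 6 and 1 on Alas2 and 1 and 0 on Slc4a1. In whole tissue, fewer cells of a type and less RNA per cell cannot be told apart.

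The 40 genes held 3223 and 919 of the coding counts in replicates 1 and 2, which made 1.15% (1.11 to 1.19, 95% Wilson interval) and 1.05% (0.980 to 1.11). Glycolysis and lactate formation took the larger part, with 1819 and 520 counts, followed by the citrate cycle with 1046 and 283. The pyruvate dehydrogenase group had 250 and 79 counts and the transporters 108 and 37. A mean of 10 counts over both libraries was reached by 36 of the members. The other 4 were Hk2 with 3 and 0 counts, Pdk1 with 9 and 0, and Idh2 and Suclg2 with 10 and 2 each. They encode hexokinase 2, a pyruvate dehydrogenase kinase, the mitochondrial NADP-dependent isocitrate dehydrogenase and the GTP-specific subunit of succinyl-CoA ligase. All intervals here cover counting error only and take reads as independent. Reads amplified by PCR without molecular identifiers are not independent molecules, so the intervals can be too narrow.

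**Figure D1:**
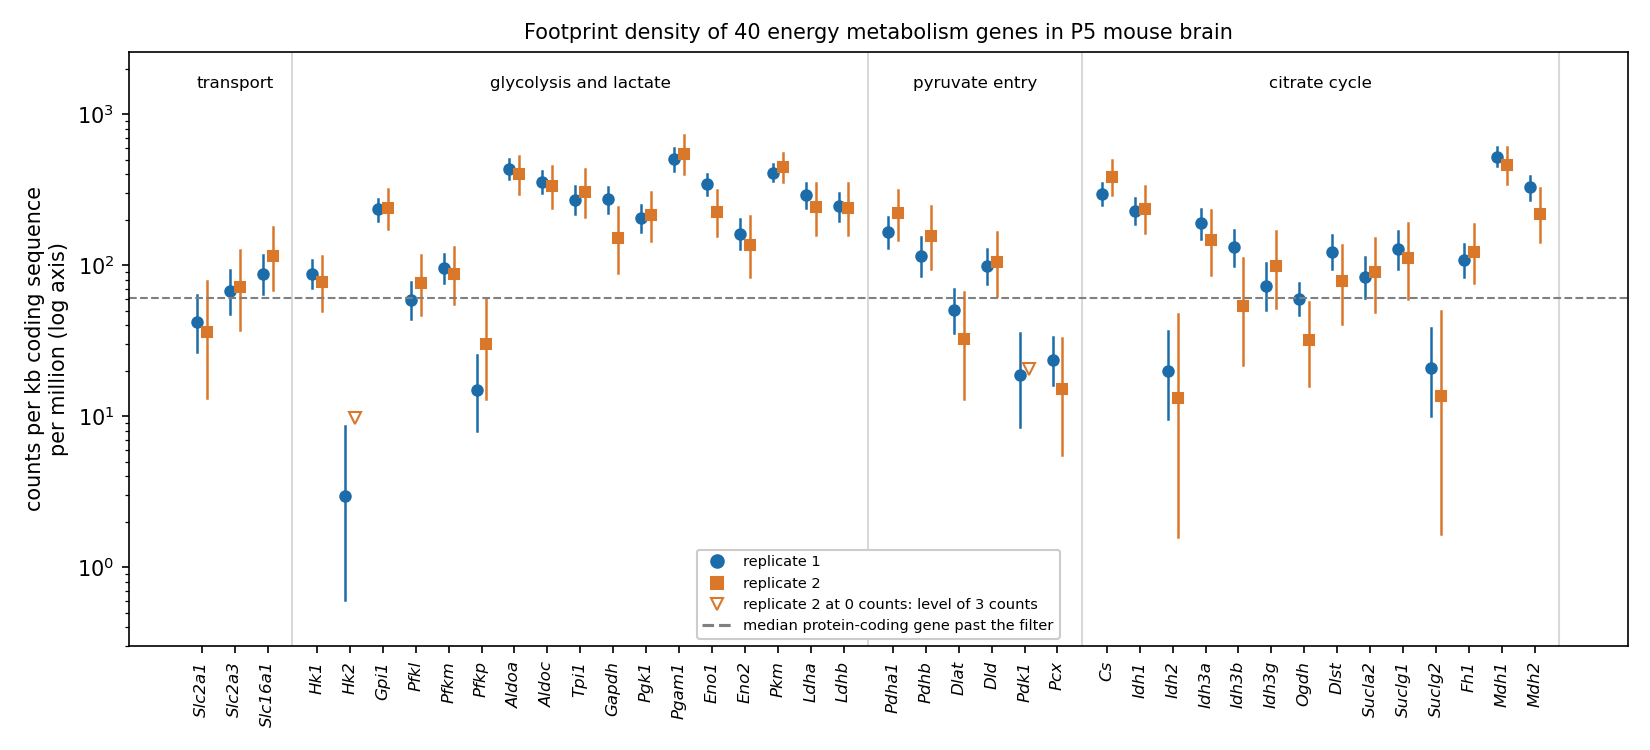
Footprint density (CPM per kilobase of coding sequence, log axis) of each of the 40 genes in replicate 1 (circles) and replicate 2 (squares), with exact 95% Poisson intervals; open triangles mark the level of 3 counts for the genes without a count in replicate 2, and the dashed line is the median protein-coding gene past the count filter. Taken from the coding transcript with the highest count, Pgam1 and Mdh1 stand highest and Hk2 lowest, and the intervals of neighbouring genes mostly overlap.

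The median glycolytic gene stood well above the median gene of the citrate cycle. The median density was 245 in replicate 1 and 226 in replicate 2 over the 17 glycolytic genes, and 125 and 105 over the 14 citrate cycle genes. The ratio of these medians was 1.96 and 2.15. The 6 genes around pyruvate dehydrogenase had medians of 74.9 and 68.7, and the 3 transporters 67.7 and 72.3. The median of all 4392 protein-coding genes past the filter was 62.0 and 59.7. With the 9 glycolytic genes that have named pseudogenes or retrocopies and Cs left out, the ratio of medians was 0.745 and 0.842. The 8 glycolytic genes remaining included the hexokinases and phosphofructokinases. Having a named copy and the step of the pathway therefore cannot be told apart in this fall.

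Among the members past the filter, 18 of 36 lay above the 75th percentile of coding density in both replicates, against 21.7% of all protein-coding genes past the filter. They comprised 12 of the 16 glycolytic genes tested, 5 of 12 in the citrate cycle, 1 of 5 in the pyruvate dehydrogenase group (Pdha1) and none of the 3 transporters. A density above the median in both replicates was found for 29 of 36, against 44.2% of coding genes. The members' coding sequences had a median of 1305 nucleotides, against 1410 for coding genes past the filter. Across the 36 members, density and coding length had a Spearman rho of -0.68, and across all 4392 genes one of -0.78. Length is the denominator of the density and the count filter removes short genes of low density, so these values are descriptions only.

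On the leading transcripts, the highest densities belonged to phosphoglycerate mutase and cytosolic malate dehydrogenase. With isoforms summed, Pgam1 ranked 12th and Mdh1 7th of the 40 genes. Pgam1 may also share fragments with its copy Pgam1-ps2, which had 140 and 46 counts. Pgam1 (ENSMUSG00000011752), which shifts the phosphate of phosphoglycerate, had 142 and 47 counts over 765 coding nucleotides and a density of 526 ± 32.2 (SD, n = 2). Mdh1, which oxidises malate in the cytosol and serves the malate-aspartate shuttle, had 194 and 52 counts and a density of 493 ± 43.2. Pkm, pyruvate kinase, had the most counts of any member, 242 and 80, and a density of 429 ± 25.9. Aldoa stood at 418 ± 25.4, Aldoc at 345 ± 13.9 and Cs, citrate synthase, at 341 ± 61.4 (each SD, n = 2). In the order of all 40 genes, intervals of neighbours overlapped in 38 of 39 pairs in replicate 1 and in 39 of 39 in replicate 2. The order of neighbours is therefore not resolved at this depth, while the distance from the top to genes such as Pcx (19.4 ± 6.08) is.

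Glucose enters brain through Slc2a1 at the blood-brain barrier and in glia and through Slc2a3 in neurons. Slc2a1 had 23 and 6 counts, a density of 42.1 (95% Poisson interval 26.7 to 63.2) in replicate 1 and 36.2 (13.3 to 78.9) in replicate 2. Slc2a3 had 37 and 12 counts and a density of 67.7 (47.6 to 93.3) and 72.3 (37.4 to 126). The density of Slc2a3 was 1.61 times that of Slc2a1 in replicate 1 (95% exact interval 0.929 to 2.83) and 2.00 times in replicate 2 (0.693 to 6.48), with both intervals including 1. Slc16a1, the monocarboxylate transporter of lactate and ketone bodies, had 48 and 19 counts and a density of 101 ± 18.9 (SD, n = 2).

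The phosphorylating steps at the start of glycolysis had the lowest summed densities of the pathway in replicate 1. Hexokinase, which traps glucose as its phosphate, came to 90.4 in replicate 1 and 77.7 in replicate 2 over its 2 genes. On the leading transcripts this was the lowest of the 11 steps in both. Phosphofructokinase, the classical control point, came to 170 and 194 over its 3 genes. Aldolase had the highest sum in both libraries, 791 and 735 over 2 genes. Lactate dehydrogenase followed in replicate 1 with 536, and phosphoglycerate mutase in replicate 2 with 549. Pyruvate kinase, with a single gene, came to 411 and 448, so that hexokinase stood at 0.220 and 0.174 of it. With isoforms summed, Hk1, with 20 transcripts, had a density of 188 and 153, and Pkm one of 394 and 436.5. In replicate 1, Pfkl, Pfkm and Pfkp then had 41.4, 91.9 and 42.3, so hexokinase was not the lowest step there.

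**Figure D2:**
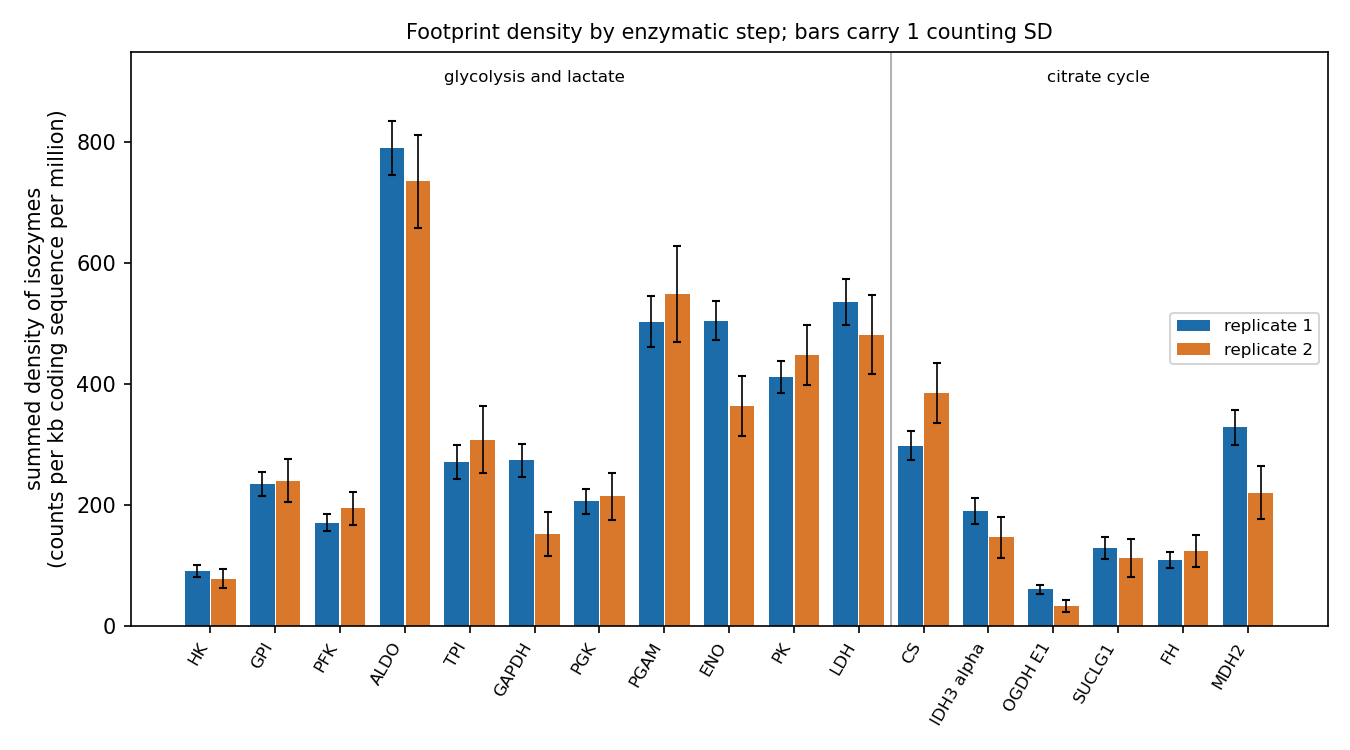
Summed density of the isozymes of each step (CPM per kilobase of coding sequence, linear axis from 0) in replicates 1 and 2. Each gene is taken from its coding transcript with the highest count, and error bars are 1 counting SD. HK is hexokinase, GPI glucose phosphate isomerase, PFK phosphofructokinase, ALDO aldolase, TPI triosephosphate isomerase, PGK and PGAM phosphoglycerate kinase and mutase, ENO enolase, PK and LDH pyruvate kinase and lactate dehydrogenase, CS citrate synthase, FH fumarate hydratase; hexokinase is lowest and aldolase highest among the glycolytic steps in both libraries.

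Nearly all hexokinase footprints lay on Hk1, the form bound to the outer mitochondrial membrane in brain. Hk1 had 89 and 24 counts, and Hk2, the insulin-regulated form of muscle and fat, had 3 and 0. The density of Hk1 was 29.6 times that of Hk2 in replicate 1 (95% exact interval 9.82 to 146) and at least 7.99 times in replicate 2, taking 3 counts per library as the limit that a count of 0 allows; the exact 95% interval there began at 6.01. Hk1 had 20 transcripts in the table, more than any other member.

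Of the phosphofructokinase genes, the muscle form Pfkm had 83 and 23 counts, the liver form Pfkl 51 and 20, and the platelet form Pfkp 13 and 8 on its coding transcript. Pfkm stood at 1.63 times the density of Pfkl in replicate 1 (95% exact interval 1.14 to 2.35) and 1.15 times in replicate 2 (0.604 to 2.21), so the difference was past counting error in the deeper library alone. Pfkp was lower than both, at 0.254 times Pfkl in replicate 1 (0.127 to 0.473) and 0.398 times in replicate 2 (0.152 to 0.943). With all isoforms summed, the mean log2 ratio of Pfkp to Pfkl went from -1.65 to 0.15, so its place below Pfkl depends on how isoforms are counted. The transcript of Pfkp with the most counts was a retained-intron isoform with 18 and 6 counts.

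Aldoa and Aldoc were close to each other. Aldoa, the aldolase of muscle and most tissues, had 176 and 49 counts and Aldoc, the brain form, 143 and 41. The ratio of densities was 1.23 in replicate 1 (95% exact interval 0.979 to 1.54) and 1.19 in replicate 2 (0.771 to 1.85), with both intervals including 1. With isoforms summed the mean density was 1193 for Aldoa and 509 for Aldoc, and with the longest coding isoform of each gene the mean log2 ratio was -0.065 in place of 0.27.

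The ubiquitous enolase had more footprints than the neuronal one, past counting error in replicate 1 alone. Eno1 had 165 and 33 counts and Eno2, the neuronal form, 78 and 20, with the same coding length of 1305 nucleotides. Eno1 stood at 2.12 times Eno2 in replicate 1 (95% exact interval 1.61 to 2.81) and 1.65 times in replicate 2 (0.919 to 3.03). With isoforms summed, the mean density was 590 for Eno1 and 407 for Eno2, a mean log2 ratio of 0.52 in place of 0.90. Eno1 may share fragments with its copy Eno1b, which had 168 and 43 counts, and the table does not tell which of the copies a shared fragment came from.

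Lactate dehydrogenase footprints on the leading transcripts did not differ past counting error between the gene of the muscle subunit, Ldha, and that of the heart subunit, Ldhb. Ldha had 107 and 27 counts and Ldhb 91 and 27. Their density ratio was 1.18 (95% exact interval 0.886 to 1.58) and 1.01 (0.568 to 1.78). With isoforms summed, the mean density was 594 for Ldha, which has 8 transcripts in the table, and 219 for Ldhb, which has 3.

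**Figure D3:**
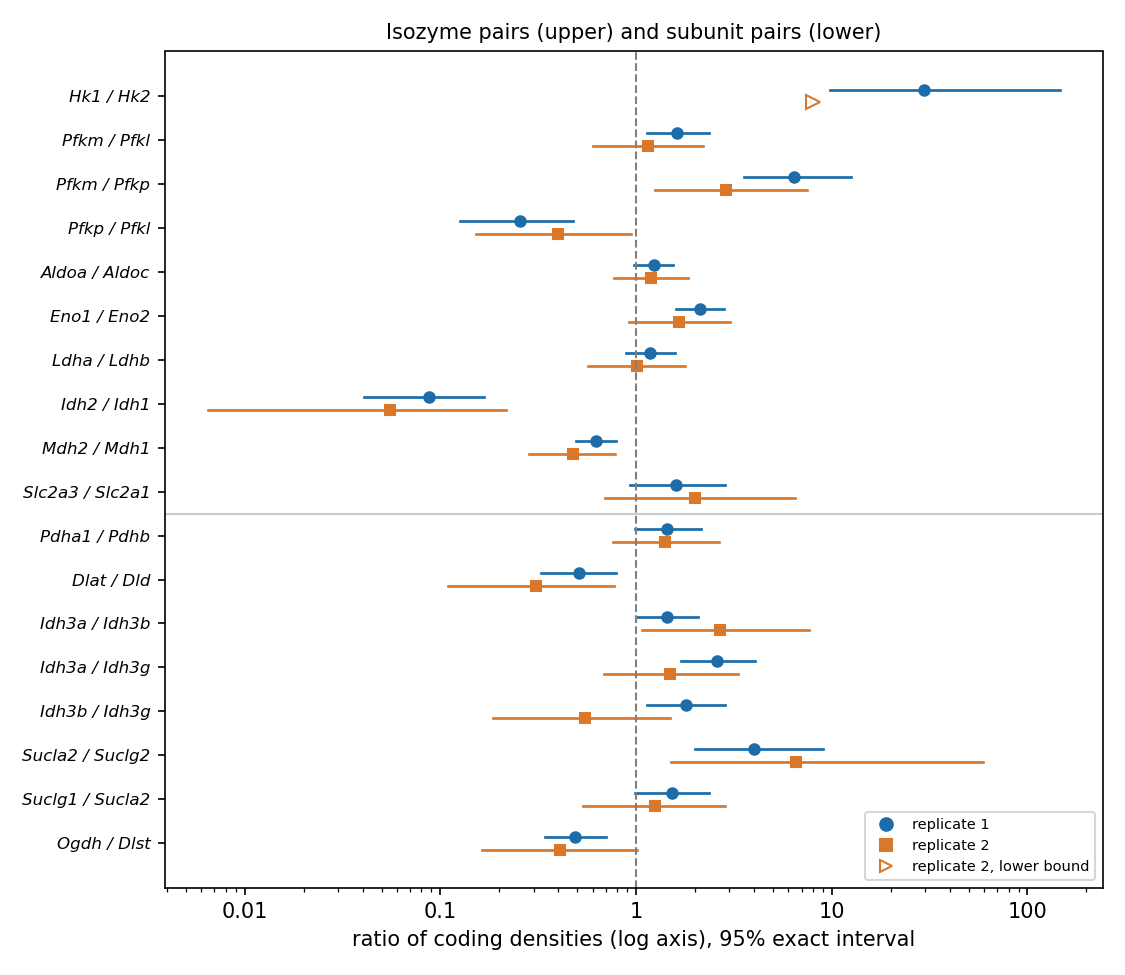
Ratio of coding densities of 2 genes within a library (log axis) with exact 95% intervals, for 10 pairs of isozymes or compartment forms (upper) and 8 pairs of subunits (lower); circles are replicate 1, squares replicate 2 and the open triangle a lower bound. Intervals exclude 1 in both replicates for 8 of the 18 pairs, with Hk1 over Hk2 and Idh2 under Idh1 the farthest from 1.

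The remaining single-gene steps of glycolysis lay above the median coding gene in both libraries. Gpi1, which isomerises glucose phosphate, had 145 and 45 counts and a density of 237 ± 3.75 (SD, n = 2). Tpi1, which interconverts the triose phosphates, had 90 and 31 counts and a density of 289 ± 25.9. Pgk1, which makes the first ATP of the pathway, had 95 and 30 counts and a density of 210 ± 5.89. Gapdh, the oxidative step, had 101 counts in replicate 1 and 17 in replicate 2, with densities of 273 (95% Poisson interval 223 to 332) and 152 (88.3 to 243). Gapdh thereby ranked 14th of the 40 genes by mean density, and 2nd when its 13 transcripts were summed.

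Pyruvate dehydrogenase is built from a decarboxylating heterotetramer of Pdha1 and Pdhb, an acetyltransferase core of Dlat and the dehydrogenase Dld, which it shares with the oxoglutarate complex. Pdha1 had 72 and 29 counts and Pdhb 46 and 19, a density ratio of 1.44 (95% exact interval 0.982 to 2.13) and 1.41 (0.762 to 2.65), with both intervals including 1. Dlat had 36 and 7 counts and Dld 56 and 18. Dlat stood below Dld in both libraries, at 0.510 times its density (0.326 to 0.789) and 0.308 times (0.109 to 0.774). Pcx, pyruvate carboxylase, which refills the citrate cycle and in brain is a glial enzyme, had 31 and 6 counts over 3540 coding nucleotides, the longest coding sequence of the list.

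In the citrate cycle, footprints of the NAD-dependent isocitrate dehydrogenase were found on all 3 subunit genes. The catalytic subunit Idh3a had 77 and 18 counts, Idh3b had 56 and 7, and Idh3g had 32 and 13 on its coding transcript. Idh3a stood at 1.44 times Idh3b in replicate 1 (95% exact interval 1.01 to 2.07) and 2.70 times in replicate 2 (1.08 to 7.64), a mean log2 ratio of 0.98 that was 0.24 with isoforms summed. Idh3a stood at 2.58 times Idh3g (1.69 to 4.03) in replicate 1 and at 1.49 times (0.689 to 3.30, including 1) in replicate 2, and with isoforms summed the mean log2 ratio went from 0.97 to -0.97. The ratio of Idh3b to Idh3g was 1.79 (1.14 to 2.86) in replicate 1 and 0.551 (0.186 to 1.49) in replicate 2, where the interval included 1.

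Among the subunit genes of succinyl-CoA ligase, Sucla2 and Suclg2 differed in density past counting error in both replicates. On the leading transcripts, Ogdh and Dlst of the oxoglutarate dehydrogenase complex did so in replicate 1 alone. Ogdh had 68 and 11 counts over 3072 coding nucleotides, and Dlst, the core of the same complex, had 62 and 12 over 1365, a density ratio of 0.487 in replicate 1 (95% exact interval 0.340 to 0.699) and 0.407 in replicate 2 (0.163 to 1.01, including 1). With isoforms summed the direction turned, from a mean log2 ratio of -1.17 to 0.93. The ATP-specific subunit Sucla2 had 43 and 14 counts against 10 and 2 for the GTP-specific Suclg2. Sucla2 stood at 4.02 times the density of Suclg2 in replicate 1 (1.99 to 8.98) and 6.55 times in replicate 2 (1.5 to 59.4). The shared subunit Suclg1 had 49 and 13 counts and lay at 1.52 (0.991 to 2.35) and 1.24 (0.537 to 2.85) times Sucla2. Fh1, fumarate hydratase, had 61 and 21 counts and a density of 116 ± 10.3 (SD, n = 2).

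Of the NADP-dependent isocitrate dehydrogenases, the cytosolic form had the higher density, and the cytosolic malate dehydrogenase had the higher density on its leading transcript. Idh1, the cytosolic NADP-dependent enzyme, had 105 and 33 counts against the 10 and 2 of Idh2. The density of Idh2 was 0.0873 times that of Idh1 in replicate 1 (95% exact interval 0.0406 to 0.167) and 0.0555 times in replicate 2 (0.0065 to 0.217). Mdh2, the citrate cycle enzyme, had 123 and 25 counts and stood at 0.627 times Mdh1 (0.496 to 0.789) and 0.475 times (0.283 to 0.780). That order of Mdh2 and Mdh1 was lost when isoforms were summed, with a mean log2 ratio of 0.038 in place of -0.87.

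Of the 40 genes, 10 had a pseudogene or retrocopy that the table or RefSeq names after them, 16 copies in all, and several copies carried nearly the counts of the parent. Pgam1-ps2, as long as the coding sequence of Pgam1, had 140 and 46 counts against 142 and 47. Pgk1-rs7, listed as protein coding in the table and as a pseudogene by RefSeq, had 103 and 25 counts against the 95 and 30 of Pgk1. For Gapdh, the copy Gm3272 had 80 and 13 counts and Gapdh-ps14 had 21 and 5. The Gpi1 copy Gm1840 had 66 and 22 counts, 45.5% and 48.9% of the parent. Copies of Aldoa (3 genes) had 77 and 19 counts in sum, the Cs copy Csl 32 and 14, those of Ldha 36 and 9, that of Ldhb 12 and 5 and those of Tpi1 4 and 2. Copies that carry only a Gm number and no RefSeq name after the parent could not be matched here, so the counts of copies are lower limits.

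**Figure D4:**
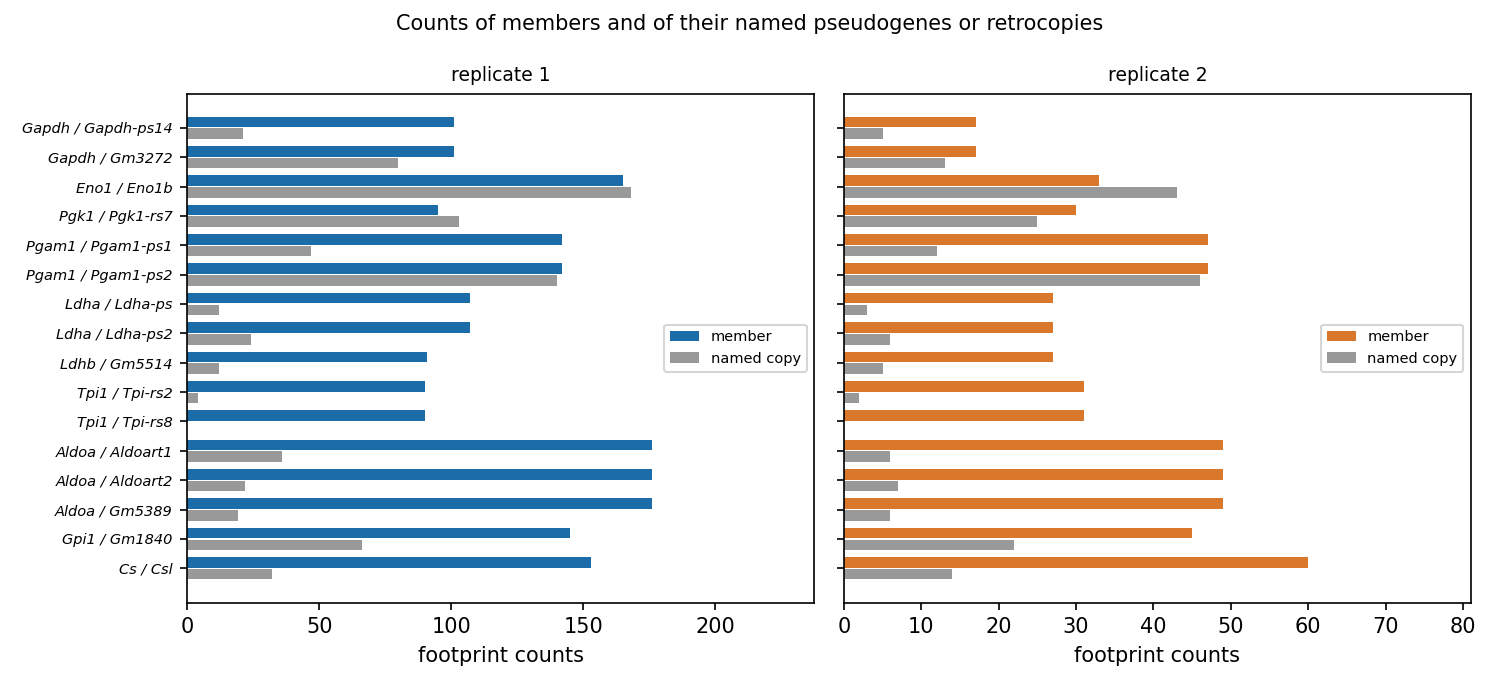
Footprint counts of members (coloured) and of each named pseudogene or retrocopy (grey) in replicate 1 (left) and replicate 2 (right), on linear axes. The copies of Eno1, Pgk1 and Pgam1 (Eno1b, Pgk1-rs7 and Pgam1-ps2) reach counts close to those of the member, while those of Tpi1 stay at 4 counts or fewer.

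How fragments that fit several transcripts were counted is not given in the sources used here, and the counts of similar isoforms lay between equal and independent. Where isoforms matched in coding length and had untranslated regions within 60 nucleotides of each other, the mean squared difference in replicate 1 was 0.225 of that between independent counts where the gene had 2 transcripts (19 pairs), and 0.690 where it had 9 or more (68 pairs). Counts that are equal give 0 and independent counts give 1. Isoforms matched by length can still differ in exons, so the value is no measure of how many fragments were shared. The transcript with the highest count can understate genes with many transcripts or copies, and a sum can count a shared fragment more than once; by how much was not tested. With isoforms summed, the leading members were Aldoa (1193), Gapdh (709), Ldha (594) and Eno1 (590), while Pgam1, with 1 transcript, went from first to 12th and Cs from 6th to 17th. Hk1 went from 29th to 18th. Summing raised the effective library size from 369005 to 752106 in replicate 1 and from 111985 to 218168 in replicate 2. A gene with 1 transcript therefore fell in density by construction, with its counts unchanged. Of the 17 pairs with counts on both genes, 12 moved by more than the SD between replicates without a change of a called order. Among them, the pairs of Idh3a with Idh3g and of Ogdh with Dlst turned direction as given above; Idh3a and Dlst have 1 transcript each, Idh3g 9 and Ogdh 7. The mean log2 ratio of Pfkm to Pfkp shrank (2.11 to 0.80), and those of Pdha1 to Pdhb (0.51 to 1.32) and of Sucla2 to Suclg2 (2.36 to 3.53) grew.

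**Figure D5:**
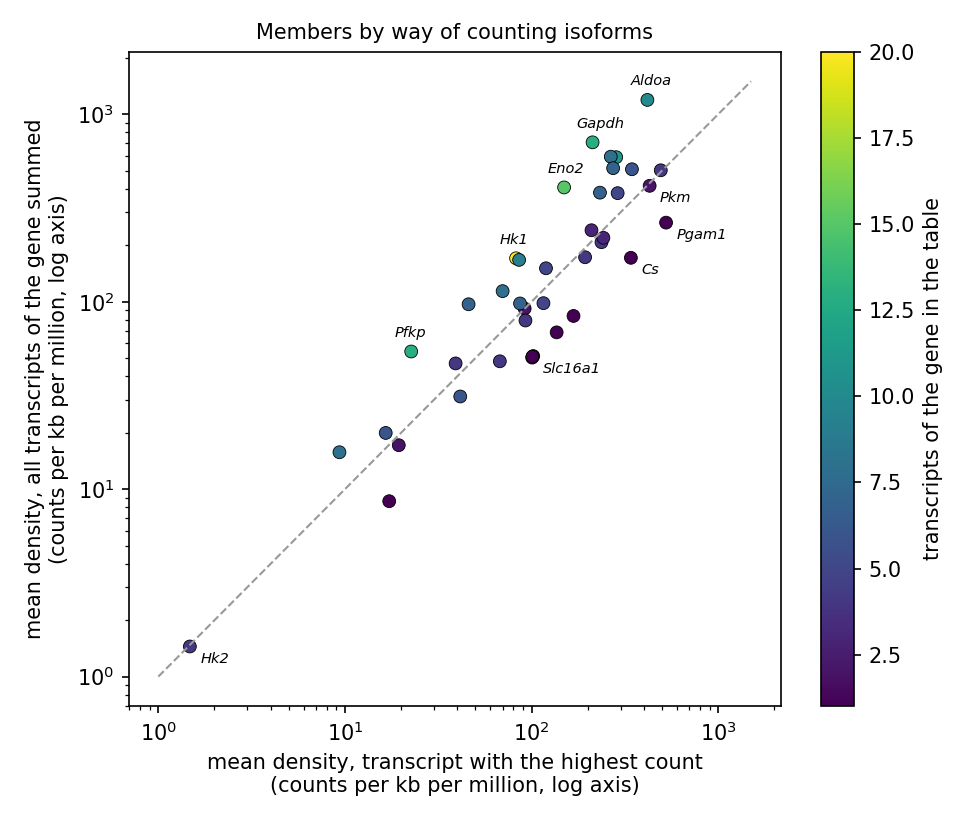
Mean density of the 40 genes from the transcript with the highest count (horizontal) and from all transcripts summed (vertical), in CPM per kilobase of coding sequence on log axes; the colour gives the number of transcripts and the dashed line marks equal values. Genes with many transcripts, such as Aldoa, Gapdh, Eno2 and Hk1, lie above the line, and Pgam1 and Cs, with 1 transcript each, lie below it. Genes with 1 transcript lie below the line by construction, since summing raises the library totals.

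The table holds 2 pyruvate kinase transcripts, with equal lengths in every region. Pkm-202 had 242 and 80 counts and Pkm-201 had 231 and 72. Fragments that fit both may stand in both counts, so the values do not show how far either splice form was used. The table does not say which of them is the muscle or the embryonic splice form, so neither is named here.

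Between the libraries, none of the 36 members tested passed the exact binomial test with Benjamini-Hochberg adjustment over all 5436 genes, where 0.956% of protein-coding genes and 4.14% of all genes tested did. At an unadjusted p under 0.05 there were 3 members, Gapdh, Eno1 and Idh3b, against 5.62% of protein-coding genes and 9.6% of all genes tested. Taken as log2(CPM + 1) of replicate 2 minus that of replicate 1, the difference was -0.85 for Gapdh (counting SE 0.378, adjusted exact binomial p = 0.316), -0.60 for Eno1 (SE 0.275, adjusted exact binomial p = 0.379) and -1.27 for Idh3b (SE 0.578, adjusted exact binomial p = 0.340). EdgeR's exact test with a preset coefficient of variation of 0.2 called none of the 36 either, and none had an unadjusted p under 0.05 in it. With isoforms summed, 5 of 38 members were called (Aldoa, Gapdh, Eno1, Idh3b and Ogdh, all lower in replicate 2), where 5.49% of protein-coding genes were. These tests compare the reads of 2 libraries, not conditions. Other differences below zero were those of Ogdh (-0.90), Dlst (-0.64), Dlat and Pcx (-0.63 and -0.64) and Mdh2 (-0.58), the first 4 with 12 counts or fewer in replicate 2. Of the glycolytic genes with many counts, Pkm (0.12), Aldoa (-0.12), Aldoc (-0.08) and Pgam1 (0.12) had small differences, each with a counting SE of 0.186 to 0.256. Eno1, with a higher mean count than Aldoc and Pgam1, had the -0.60 given above. The differences farthest above zero belonged to the pyruvate dehydrogenase subunits Pdhb (0.44) and Pdha1 (0.41), the transporter Slc16a1 (0.38), Cs (0.37) and Pfkl (0.37). Between these lay Idh3a (-0.37), Ldha (-0.27), Mdh1 (-0.18), Hk1 (-0.17), Fh1 (0.18) and Tpi1 (0.18), and closest to zero Gpi1 (0.03), Ldhb (-0.03), Idh1 (0.05) and Pgk1 (0.06).

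The median log2 ratio of the members was -0.06, against -0.02 over protein-coding genes, with 17 above 0 and 19 below. With library totals for scaling, 30 of 36 were below 0 and the coding median was -0.22. Of the genes with at least 1 count in each replicate, 32 of 38 members were below 0, at a coding median of -0.047, and above a mean count of 50, 13 of 18 were, at -0.02. Densities of the 36 members in the libraries correlated across genes with a Pearson r of 0.933 and a Spearman rho of 0.932 on log2(density + 1), and those of the 4392 coding genes with 0.924 and 0.921. Genes are not independent replicates, and the members share library and depth.

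Genes that complete the pathways gave the setting of these values. Of 16 isozymes known from other tissues, such as the testis forms Pgk2, Ldhc and Pdha2, none reached the filter, 12 had no count in replicate 1 and 14 none in replicate 2, and the list held 5 and 2 counts in sum. All 7 regulators of glycolysis were below the filter, with 33 and 8 counts in sum. In the list of 17 other citrate cycle and anaplerotic genes, 12 were tested and none was called. Its highest densities were those of the succinate dehydrogenase subunits Sdhc (314 and 228), Sdhd (254 and 223), followed by the mitochondrial aspartate aminotransferase Got2 (210 and 200).

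Of 9 genes of ketone body and lactate use, 6 passed the filter and none was called. Basigin (Bsg), the chaperone of monocarboxylate transporters, had 117 and 43 counts and a density of 271 and 328. Oxct1, the enzyme that commits ketone bodies to oxidation, had 117 and 53 counts and a density of 203 and 303, and Acat1, the thiolase that follows it, 92 and 40 counts and a density of 196 and 280. The log2 ratio of Oxct1 between the libraries was 0.58 (adjusted exact binomial p = 0.284).

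Of 11 genes of pyruvate entry and its control, 3 were tested and 1 was called. Mpc1, a subunit of the mitochondrial pyruvate carrier, had 28 counts in replicate 1 and 0 in replicate 2 on its representative transcript, a level at least 2.83-fold lower in replicate 2 against the limit of 3 counts (adjusted exact binomial p = 0.0287). Its isoform Mpc1-201, with the same coding length of 330 nucleotides, had 22 and 3 counts, and all its isoforms together 136 and 18. The adjusted exact binomial p of Mpc1 was 0.137 among protein-coding genes alone, and with a preset coefficient of variation of 0.2 edgeR's exact test gave an adjusted p of 0.0556. The partner subunit Mpc2 had 18 and 3 counts and was not called, and Pdhx, the protein that binds Dld to the pyruvate dehydrogenase core, had 26 and 9.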

How the data were processed

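Ribosome-protected fragments were sequenced from 2 control brains. The authors deposited 1 table of raw counts per transcript and replicate, not normalised, with transcript and coding lengths as other columns; per the submitters' processing notes, Trimmomatic 0.36, Bowtie2 2.2.6, SAMtools and build GRCm38.p4 were used, with the counting tool and annotation release not given in the sources used here. Symbols are transcript names without suffix. Genes were scaled with edgeR 4.0.16 (TMM over genes averaging 10 counts or more), which made 1 count worth 2.71 CPM in replicate 1 and 8.93 in replicate 2. Densities used the protein-coding isoform with the highest count, which was the representative transcript for 38 members; Pfkp and Idh3g have retained-intron representatives. A 2-sided exact binomial test per gene, adjusted by Benjamini-Hochberg at 0.05 over all 5436 genes, compared the libraries, and the code was tested on simulated data. Paired genes were compared with exact Clopper-Pearson intervals over 18 fixed pairs, without p-values. The members, lists and naming rule (all members, in detail the densest of each step, both genes of each pair, and any called; from each companion list the 3 densest past the filter and any called gene) were chosen with earlier results of these data known. Step sums and the comparison of isoform counts were added after seeing the data.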

Additional observations from a re-analysis of the deposited data

How the results depend on the processing

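No paired analysis was possible because the design holds a single group. Leaving out a replicate gave no test between libraries. Members called, 0 in the main analysis, stayed at 0 under every other setting except summed isoforms, where Aldoa, Gapdh, Eno1, Idh3b and Ogdh made 5, all lower in replicate 2, of 38 tested; in that setting 5.49% of protein-coding genes tested were called and 2.99% were called lower in replicate 2. A sum can take repeated fragments for independent ones. The median log2 ratio of -0.06 became -0.26 with library totals, -0.29 with at least 1 count in each replicate, -0.13 above a mean count of 50 and 0.028 with isoforms summed (the coding median moved to -0.22 with library totals). With isoforms summed, the share of coding counts went from 1.10% to 1.28%, the stage medians relative to the median coding gene went from 3.87 to 6.48 for glycolysis, 1.89 to 2.65 for the citrate cycle, 1.18 to 1.01 for pyruvate dehydrogenase and 1.15 to 1.34 for transporters, the glycolysis to citrate cycle ratio from 2.06 to 2.47, and the log2 ratios of Pfkp to Pfkl and of Mdh2 to Mdh1 reversed to 0.15 and 0.038. Per transcript length, the mean log2 ratio of Pdha1 to Pdhb turned from 0.51 to -0.31. That of Ldha to Ldhb turned from 0.13 to -0.17. The stage medians per transcript length were 5.42, 2.82, 1.63 and 0.956. With at least 1 count in each replicate, which lowers the median coding gene, they were 11.3, 5.54, 3.45 and 3.35. In that setting 31 of 38 members were above the 75th percentile in both replicates, against 21% of coding genes. The main analysis had 18 of 36, against 21.7%. The longest coding isoform gave 3.66 for glycolysis. Without the members that have named copies the share was 0.665%, the glycolysis median 1.43 and the ratio 0.794. Where no construction is given, the cause was not tested. In replicate 2, 1 count of a 1000-nucleotide gene is a density of about 8.93, so genes under 10 counts there have wide intervals.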

Other observations

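The pentose phosphate pathway, which branches from glycolysis to make NADPH and ribose, held 325 counts in replicate 1 and 101 in replicate 2 over 7 genes. Of these, 5 were tested and none was called between the libraries. Its highest densities were those of transketolase Tkt (143 and 48 counts, density 207 and 229) and transaldolase Taldo1 (64 and 22 counts, 171 and 194), both non-oxidative. The other non-oxidative enzymes, Rpe (8 and 1 counts) and Rpia (4 and 3 counts), were under the filter and had the lowest mean densities of the list. Of the oxidative enzymes, Pgd had 48 and 13 counts and a density of 89.6 and 80.0, and Pgls 30 and 5 counts and a density of 105 and 57.7. G6pdx, the entry enzyme, had 28 and 9 counts and a density of 49.0 and 51.9. G6pdx, Pgls, Rpe and Rpia were named after their values were seen.

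Of 10 glycogen genes, 3 were tested and none was called, with 197 and 51 counts in sum. Pygb, the brain form of glycogen phosphorylase, held 96 and 27 of them at a density of 103 and 95.2. The other genes past the filter were Pgm2, with 29 and 8 counts, and Gyg, which primes glycogen, with 18 and 2.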
